A study of Mus musculus with 35 samples.

Results

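The cadherins and the non-clustered protocadherins comprised 35 genes of the 52636 genes with a row in the count files. Members were all protein-coding genes whose GENCODE mouse symbol is Cdh or Pcdh followed directly by a number. The 57 genes of the clustered Pcdha, Pcdhb and Pcdhg families thus stayed out. This rule uses names only, but it was chosen with earlier results of these data known. All 35 symbols that matched were protein coding, and 34 of them had at least 10 counts in total in each comparison of amygdala portions and were tested there. The member left out was Cdh16, a cadherin of the kidney, which had 0 counts in 32 of the 35 libraries.

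RNA was sequenced from cells of the basolateral amygdala that were collected with a laser capture microscope from an anterior and a posterior portion in 19 female mice, 8 of the inbred strain C57BL/6J and 11 of the B6D2F1N strain, a hybrid of C57BL/6 and DBA/2 mice. Per the labels, a mouse lived either in the control environment, called standard housing here, or in the enriched environment, in which it could use a playground for 1 h per day from postnatal day 77. Every mouse, whatever its housing, was trained from postnatal day 70 for a test of cognitive judgment bias, completed that test and received restricted food during the experiment, so no group represents untrained mice. The mice were co-housed in cages of a single strain, and the labels do not give the cage. Of C57BL/6J, 4 anterior and 4 posterior libraries came from standard housing, and 2 anterior and 4 posterior libraries from enriched housing. Of B6D2F1N, 5 anterior and 5 posterior libraries came from standard housing, and 5 anterior and 6 posterior libraries from enriched housing. Both portions were available from 16 mice, 6 of C57BL/6J and 10 of B6D2F1N. Mouse numbers below only name the animals of a group.

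The libraries held 16938534 to 27352623 gene counts each. Levels are given as CPM, the counts of a gene relative to the total of its library, with totals scaled by edgeR's TMM method. The excitatory neuron markers Slc17a7 and Camk2a were present in every library, at 72.9 to 888 and 774 to 4640 CPM. The published slice positions place the portion named posterior at more frontal bregma values than the portion named anterior. The labels were followed here. If the names were exchanged, the sign of each portion difference below would reverse, and this was not tested. In addition, both libraries of B6D2F1N standard mouse 1, labelled female, had 0 counts of Xist, whereas the other libraries had 1191 to 4831. Some results that include this mouse are given also without it. The tests of portion by strain and of strain by housing were not refitted without it.

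Cadherins are calcium-dependent adhesion proteins that span the cell membrane and bind mostly to cadherins of the same kind on a neighbouring cell. The classical type I and type II cadherins hold the actin skeleton through catenins, and in the brain their combinations mark regions, cell layers and synapses. The delta protocadherins bind more weakly, signal through cytoplasmic motifs of their own, and take part in the guidance, formation and removal of neuronal contacts.

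Many members lie side by side in the genome (GRCm38, GENCODE M21). The type II cadherin genes Cdh6, Cdh9, Cdh10, Cdh12 and Cdh18 followed each other on chromosome 15 between positions 13028701 and 23474418 with 0 other protein-coding genes between neighbours. On chromosome 8, Cdh8 (chr8:99024471-99416471, minus strand) and Cdh11 (chr8:102632095-102785642, minus strand) were also neighbours with 0 protein-coding genes between them. On chromosome 14, Pcdh8 (chr14:79766775-79771312), Pcdh17 (chr14:84443563-84539002), Pcdh20 (chr14:88464743-88471396) and Pcdh9 (chr14:93013410-93890679) followed in this order. Pcdh10 (chr3:45378398-45435623) and Pcdh18 (chr3:49743296-49757325) lay 4308 kb apart on chromosome 3, with 1 protein-coding gene between them. Pcdh11x and Pcdh19 were the members on the X chromosome.

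Promoter sequences of RefSeq (GRCm38.p6) were matched by symbol for 22 of the 35 members, in 25 windows. The 250 bases before the RefSeq start are shown, 5′ to 3′ along the gene's strand, for the 3 type II cadherins Cdh8, Cdh9 and Cdh10 and the protocadherin Pcdh10, all of which were lower in the posterior portion of both strains, and for Pcdh8, which had the largest fold change of C57BL/6J among the members past the threshold, in the other direction. Capitals mark the letters of a TATA box (TATAAA), a GC box (GGGCGG) or the core of a cyclic AMP response element (TGACG), searched on both strands.
Cdh8, chr8:99416472-99416721, minus strand: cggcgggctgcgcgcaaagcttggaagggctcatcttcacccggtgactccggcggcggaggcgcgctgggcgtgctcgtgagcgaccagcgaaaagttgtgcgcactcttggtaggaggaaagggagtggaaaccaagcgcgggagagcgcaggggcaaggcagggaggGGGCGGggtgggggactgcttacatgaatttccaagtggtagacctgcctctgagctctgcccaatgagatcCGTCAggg
Cdh9, chr15:16728665-16728914, plus strand: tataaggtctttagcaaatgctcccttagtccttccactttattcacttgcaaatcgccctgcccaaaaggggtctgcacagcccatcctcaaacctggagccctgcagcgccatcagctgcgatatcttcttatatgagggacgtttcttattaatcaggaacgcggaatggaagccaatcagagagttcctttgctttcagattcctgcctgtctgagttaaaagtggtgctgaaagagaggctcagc
Cdh10, chr15:18820079-18820328, plus strand: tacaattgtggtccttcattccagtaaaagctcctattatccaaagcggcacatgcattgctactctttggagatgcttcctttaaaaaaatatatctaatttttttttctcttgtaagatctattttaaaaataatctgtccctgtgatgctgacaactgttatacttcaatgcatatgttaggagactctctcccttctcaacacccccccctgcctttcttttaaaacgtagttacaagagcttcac
Pcdh10, chr3:45378148-45378397, plus strand: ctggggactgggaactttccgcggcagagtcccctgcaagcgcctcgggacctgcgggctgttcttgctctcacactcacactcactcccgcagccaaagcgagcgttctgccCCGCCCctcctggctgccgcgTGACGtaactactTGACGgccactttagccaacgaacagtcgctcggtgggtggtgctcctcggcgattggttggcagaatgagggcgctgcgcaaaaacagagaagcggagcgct
Pcdh8, chr14:79771313-79771562, minus strand: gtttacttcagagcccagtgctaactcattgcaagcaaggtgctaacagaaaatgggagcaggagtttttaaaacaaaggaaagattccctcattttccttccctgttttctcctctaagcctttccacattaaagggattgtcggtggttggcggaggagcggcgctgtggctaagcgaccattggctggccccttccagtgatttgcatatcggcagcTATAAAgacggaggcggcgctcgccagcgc
The TATA box letters were found once in the window of Pcdh8 and in 12.4% of the 32851 windows of all genes. The GC box letters were found once each in Cdh8 and Pcdh10 and in 32.7% of all windows. The core TGACG was found once in Cdh8, 2 times in Pcdh10 and in 17.8% of all windows, and the full element TGACGTCA, which holds this core, in none of the 25 member windows and in 1.55% of all windows. None of these letters occurred in the windows of Cdh9 and Cdh10. These matches describe the letters in the windows only. By GENCODE, Cdh10 starts at position 18818947, so its RefSeq window lies inside the gene. The window of Cdh9 runs past the GENCODE start of that gene at 16728756. Share of G and C was 64.4% in Cdh8, 48% in Cdh9, 36.8% in Cdh10, 63.2% in Pcdh10 and 51.2% in Pcdh8, with a median of 52.4% over all windows.

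Levels of the members were compared per kb of exon, as median CPM per kb over the 35 libraries. Pcdh9, a delta-1 protocadherin, had the highest level, 98.7 CPM per kb (range 67.4 to 145), and stood above the next member in 35 of 35 libraries. Pcdh7, another delta-1 protocadherin, followed with 28.9 (15.9 to 70.8). Cdh9, a type II cadherin that is known from the synapses of hippocampal mossy fibres, had 27.5 (6.12 to 139). The order of Pcdh7 and Cdh9 did not hold from library to library, since Pcdh7 was the higher in only 15 of 35. Cdh13, the cadherin without a cytoplasmic part that is held by a GPI anchor, had 21.3 CPM per kb (5.89 to 71.4). Cdh8, a type II cadherin, had 17.5 (4.46 to 65.7). The ranges of Pcdh7, Cdh9, Cdh13 and Cdh8 overlapped.

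In all, 13 members had a median of at least 10 CPM per kb. They included the type I cadherins Cdh2 (N-cadherin), with a median of 12, and Cdh4 (R-cadherin), with 11.7, and the delta-2 protocadherins Pcdh19, Pcdh17 and Pcdh10, with 15.4, 14.2 and 13.5. Reads in every library were found for 26 members, these 13 among them. The other 9 members had 0 counts in at least 1 library, and some of them are known from other tissues. Cdh1 (E-cadherin of epithelia) had 0 counts in 28 libraries, Cdh17 (intestine) in 26, and Cdh3 (P-cadherin) and Pcdh12 (endothelium) in 18 each. Of these, Cdh3 reached 205 counts in 1 library. Cdh26 was at 0 in 17 libraries and Cdh24 in 14. In contrast, Cdh15 (M-cadherin of muscle) had counts in all libraries but 1, with a median of 1.31 CPM per kb, and Cdh5 (VE-cadherin of blood vessels) in every library, with 1.72. A count of 0 allows up to 3 counts at this depth, which covers counting error only. Of the tip-link pair of inner ear hair cells, Pcdh15 had 1.09 CPM per kb and Cdh23 had 0.0855, and Pcdh15 was above Cdh23 in 35 of 35 libraries.

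**Figure D1:**
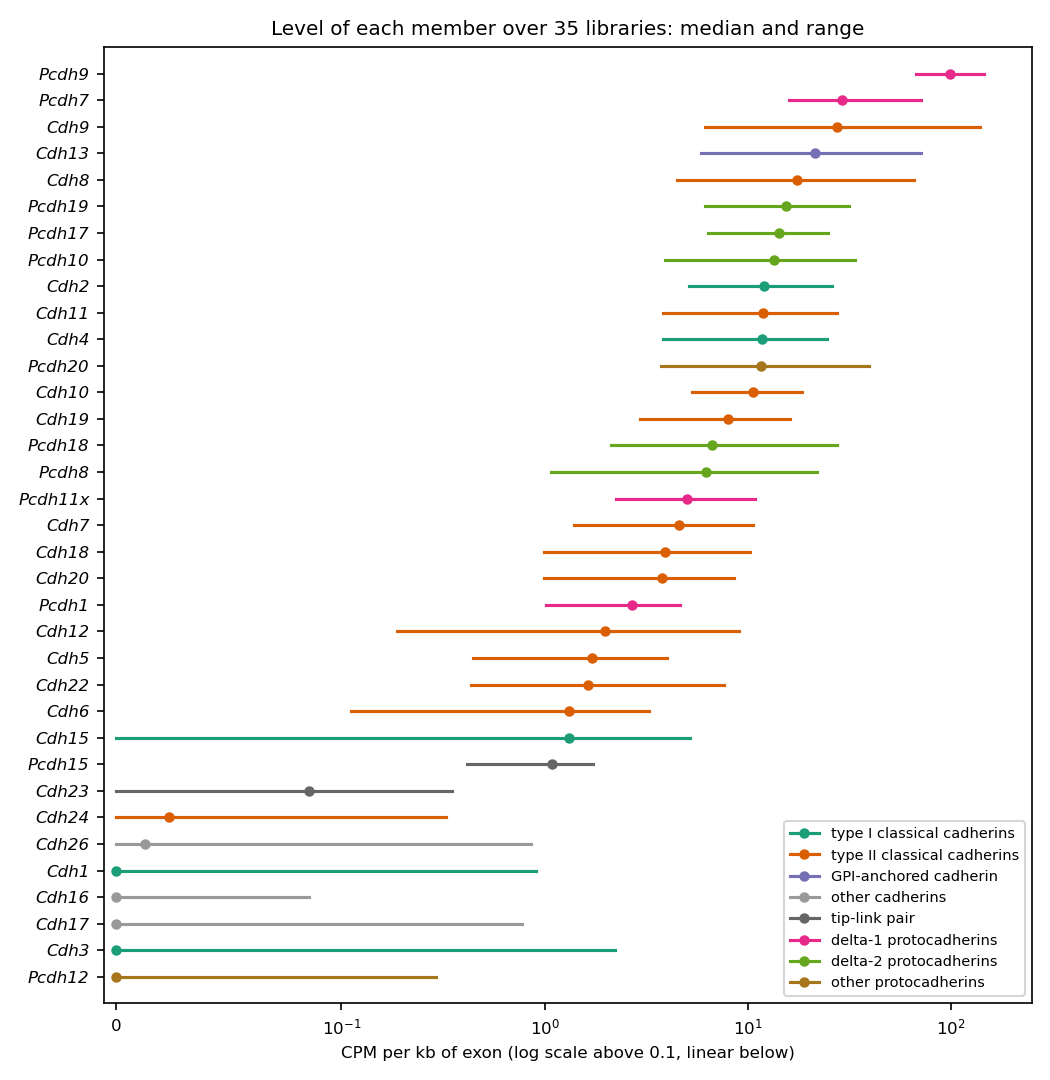
Level of each of the 35 members in CPM per kb of exon on an axis that is logarithmic above 0.1 and linear below; points give the median and bars the range over 35 libraries, coloured by role. Pcdh9 stands alone at 98.7, and 8 members at the bottom have a median under 0.1.

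For the portions, the libraries of a mouse were paired as a block in 1 fit per strain. Adjusted p-values came from the quasi-likelihood test of edgeR after Benjamini-Hochberg adjustment over all genes tested, and a gene was called when its adjusted p did not exceed 0.05. Differences are log2 fold changes of posterior minus anterior, with the standard error (SE). In C57BL/6J, 13 of 34 members passed the threshold, 6 higher and 7 lower in the posterior portion, or 38.2% of the members, where 3.64% of all 25751 genes tested passed. In B6D2F1N, 10 of 34 members passed, 3 higher and 7 lower, or 29.4%, where 4% of all 27761 genes passed. All genes tested were not matched to the members for level, and 26 members had counts in every library. The part of level in these shares was not tested. The median absolute log2 fold change was 0.81 over the members and 0.45 over all genes in C57BL/6J, and 0.83 and 0.47 in B6D2F1N. The median signed difference was close to 0 in both, at 0.02 over the members and 0.01 over all genes in C57BL/6J and at 0.06 and 0.15 in B6D2F1N. The same 8 members passed in both strains, Cdh8, Cdh9, Cdh10, Cdh11, Cdh13, Pcdh7, Pcdh10 and Pcdh18, which were 61.5% of the members called in C57BL/6J and 80% of those called in B6D2F1N. Of these, 7 were lower and Cdh13 was higher in the posterior portion. All 15 members past the threshold in at least 1 strain had the same sign in both. Overlap and shared signs were not counted over all genes called, so neither is shown to be particular to the members. Without B6D2F1N standard mouse 1, 9 members passed in B6D2F1N.

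**Figure D2:**
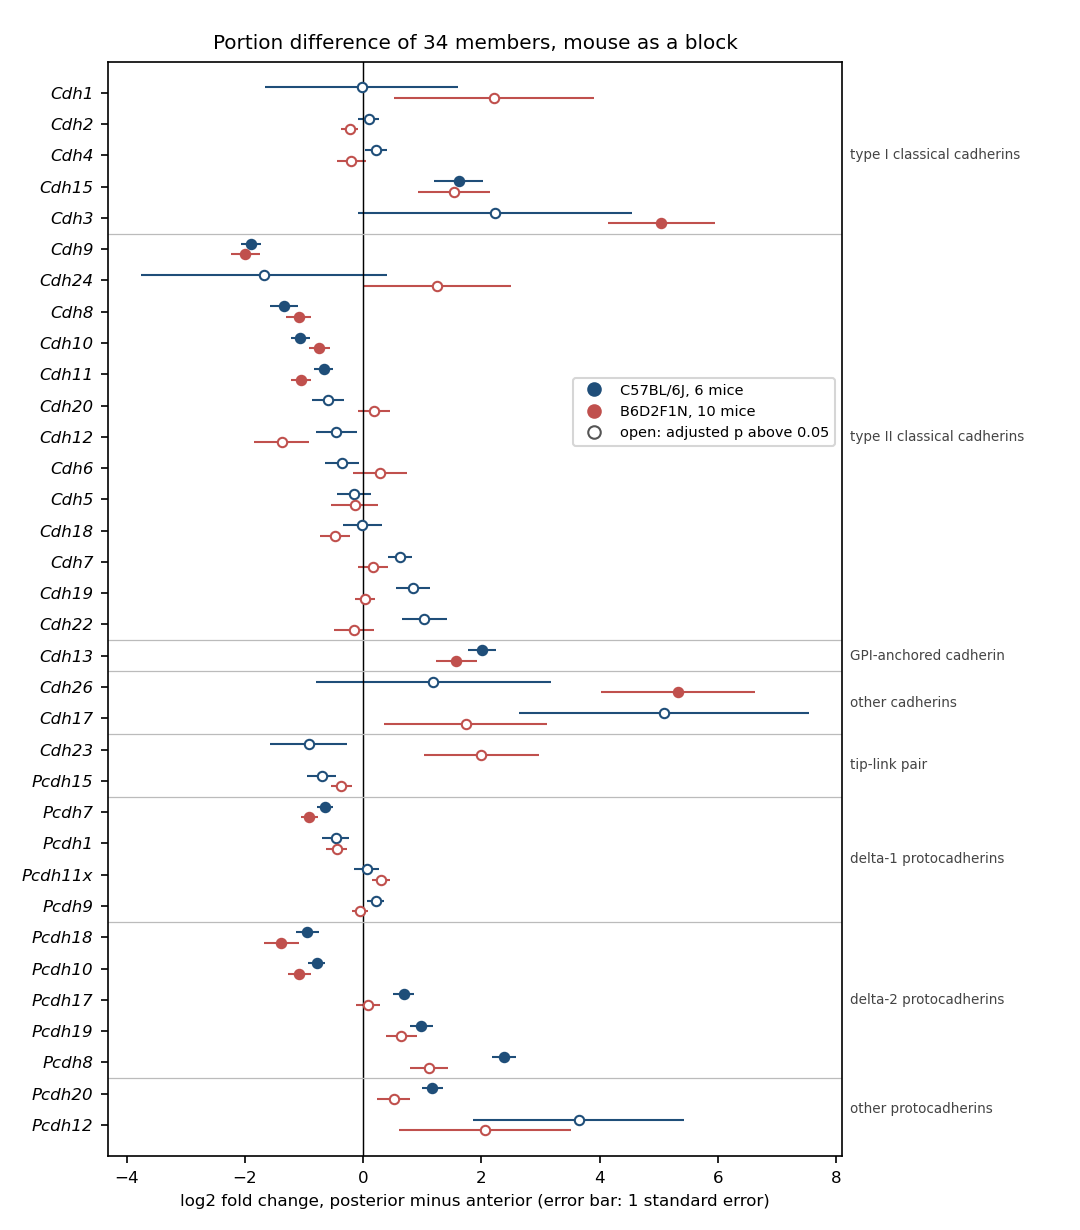
Log2 fold change, posterior minus anterior, of the 34 members tested, by role; points give the fitted value in C57BL/6J (blue, 6 mice) and B6D2F1N (red, 10 mice), bars 1 SE, and open points an adjusted p above 0.05. Cdh9 lies near -1.90 and -1.99, Cdh13 at 2.02 and 1.58, and the members with few counts have wide bars.

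Of the type II classical cadherins, 13 were tested, and 4 were lower and 0 higher in the posterior portion of each strain. Cdh9 (chr15:16728756-16857094) showed the clearest separation. In C57BL/6J, its lowest, median and highest CPM were 191, 293 and 407 in anterior against 40.6, 75.1 and 121 in posterior libraries. It was lower in the posterior library of 6 of 6 mice and the portions did not overlap (log2 fold change -1.90, SE 0.17, adjusted p = 1.63e-06). In B6D2F1N, the values were 69.2, 236 and 492 against 21.7, 54.1 and 121. All 10 mice had less Cdh9 in the posterior library, although the portions overlapped (-1.99, SE 0.25, adjusted p = 0.00013). On the log2 scale, the mean difference over C57BL/6J mice was -1.81 in standard (n = 4) and -2.08 in enriched housing (n = 2), and over B6D2F1N mice -2.44 (n = 5) and -1.57 (n = 5). Gm49127 on the opposite strand covers 6.3% of the exon bases of Cdh9.

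Cdh10 (chr15:18818947-19014236), the neighbour of Cdh9, had CPM values of 107, 149 and 186 (lowest, median, highest) in anterior against 58.5, 67.4 and 86.9 in posterior libraries of C57BL/6J. It fell in 6 of 6 mice without overlap (-1.06, SE 0.16, adjusted p = 0.000426). In B6D2F1N, 107, 133 and 181 stood against 53.1, 79.4 and 157, and 9 of 10 mice were lower in the posterior library, with overlap (-0.74, SE 0.17, adjusted p = 0.0158). The adjusted p in B6D2F1N rose to between 0.0505 and 0.052 when standard mouse 4, enriched mouse 1 or enriched mouse 3 was left out. The other members of this chromosome 15 group did not pass by edgeR in either strain. Of them, Cdh12 differed by -0.45 (adjusted p = 0.665) in C57BL/6J and by -1.38 (adjusted p = 0.125) in B6D2F1N, where DESeq2 called it (adjusted p = 0.0388), as did edgeR without a minimum count (0.0441) and without standard mouse 2 (0.0224). Cdh6 differed by -0.35 and 0.29, and Cdh18 by -0.01 and -0.48.

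Cdh8 was also lower in every mouse. Its CPM values were 188, 245 and 508 in anterior against 34.5, 123 and 190 in posterior libraries of C57BL/6J, which overlapped by a narrow margin (-1.34, SE 0.24, adjusted p = 0.00289). In B6D2F1N, they were 103, 209 and 339 against 35.5, 73.4 and 204 (-1.09, SE 0.21, adjusted p = 0.00472), lower in 10 of 10 mice and with overlap. Cdh11, also named OB-cadherin after bone-forming cells and found in neurons as well, had 120, 142 and 237 CPM in anterior against 77.5, 94.2 and 122 in posterior libraries of C57BL/6J. It was lower in 6 of 6 mice, with overlap (-0.67, SE 0.16, adjusted p = 0.025). In B6D2F1N, 84.7, 159 and 245 stood against 34, 84.6 and 106, lower in 10 of 10 mice (-1.05, SE 0.17, adjusted p = 0.00135). The call of Cdh11 in C57BL/6J ended when any 1 of 4 mice was left out (standard mice 1, 2 and 3 and enriched mouse 3, adjusted p up to 0.109). The other 9 type II cadherins did not pass by edgeR in either strain, although DESeq2 called Cdh12 in B6D2F1N, and Cdh19 and Cdh7 passed in C57BL/6J without a minimum count (adjusted p = 0.014 and 0.0483). Among the 9 was Cdh5 (VE-cadherin of blood vessels), with -0.16 and -0.15.

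Cdh13 (T-cadherin, chr8:118283733-119324921) moved in the other direction. In C57BL/6J, its CPM values were 66.1, 104 and 166 in anterior against 285, 443 and 606 in posterior libraries. It was higher in 6 of 6 mice and the portions did not overlap (2.02, SE 0.24, adjusted p = 4.86e-05). In B6D2F1N, 70.1, 121 and 451 stood against 222, 319 and 801, higher in 8 of 10 mice and with overlap (1.58, SE 0.35, adjusted p = 0.0117). The mean difference in log2 CPM was 2.41 in standard and 1.22 in enriched C57BL/6J mice, and 2.04 and 1.04 in standard and enriched B6D2F1N mice.

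Type I classical cadherins gave 1 call per strain, each higher in the posterior portion. Cdh15, the M-cadherin of muscle, had low CPM values of 1.14, 2.53 and 4.52 in anterior against 5.83, 7.85 and 9.55 in posterior libraries of C57BL/6J. These did not overlap, with 6 of 6 mice higher (1.61, SE 0.41, adjusted p = 0.0318), but the call ended without any 1 of the 4 standard mice (adjusted p up to 0.14). In B6D2F1N, Cdh15 had 0, 3.32 and 7.19 against 2.83, 7.71 and 16.9 CPM and did not pass (1.53, SE 0.61, adjusted p = 0.21). Cdh3 was called in B6D2F1N on few reads. Of the 10 anterior libraries, 7 had 0 counts and the highest had 13, for a sum of 20 counts, while each posterior library had at least 1 count and the highest 205, for a sum of 482. Posterior was higher in 10 of 10 mice (adjusted p = 0.0028), and the size of the fitted difference depends on the prior count. N-cadherin (Cdh2) did not pass, with 0.09 in C57BL/6J and -0.23 in B6D2F1N (SE 0.18 and 0.15), nor did Cdh4, with 0.21 and -0.20. Among the other cadherins, Cdh26 was called in B6D2F1N, with 8 of 10 anterior libraries at 0 and a sum of 24 counts, of which 23 came from standard mouse 3, against a sum of 166 in the posterior libraries. It was higher in 8 of 10 mice (adjusted p = 0.0254). This call ended without any 1 of 4 mice, standard mice 1 and 2 and enriched mice 1 and 3 (adjusted p up to 0.0736), and without the mouse block (adjusted p = 0.195).

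Of the delta-1 protocadherins, Pcdh7 (chr5:57717967-58133230) was lower in the posterior portion of both strains. Its CPM values were 339, 426 and 521 in anterior against 202, 269 and 358 in posterior libraries of C57BL/6J, lower in 6 of 6 mice and with overlap (-0.65, SE 0.14, adjusted p = 0.0104). The adjusted p rose to 0.0854 without standard mouse 1 and to 0.0632 without standard mouse 3. In B6D2F1N, 289, 480 and 751 stood against 169, 255 and 297, lower in 10 of 10 mice (-0.91, SE 0.14, adjusted p = 0.0011). Over 21.1% of its exon bases, Pcdh7 overlaps 4932441J04Rik on the opposite strand, whose reads cannot be told apart without the strand setting of the counting. Pcdh9, the most abundant member, had 544, 650 and 880 against 551, 817 and 983 CPM in C57BL/6J and 457, 632 and 930 against 484, 607 and 876 in B6D2F1N. The portions of Pcdh9 overlapped over most of their range, and the difference did not pass (0.21, SE 0.15, adjusted p = 0.633, and -0.06, SE 0.14, adjusted p = 0.901).

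The delta-2 protocadherins were divided. Pcdh10, which takes part in the removal of excitatory synapses, had 239, 265 and 402 CPM in anterior against 125, 171 and 214 in posterior libraries of C57BL/6J. It was lower in 6 of 6 mice without overlap (-0.78, SE 0.14, adjusted p = 0.00324). In B6D2F1N, 140, 328 and 535 stood against 62.1, 155 and 222, lower in 9 of 10 mice (-1.08, SE 0.20, adjusted p = 0.00299). Pcdh18 was lower as well, with 50.3, 61.3 and 77 against 24.5, 28.9 and 53.3 CPM in C57BL/6J (-0.95, SE 0.19, adjusted p = 0.00625). In B6D2F1N, it had 13, 62.9 and 147 against 11.4, 20.8 and 39.8 (-1.38, SE 0.29, adjusted p = 0.00936). Its portions overlapped in both strains, and 6 of 6 and 9 of 10 mice were lower.

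In contrast, Pcdh8, Pcdh19 and Pcdh17 were higher in the posterior portion of C57BL/6J. Pcdh8 (arcadlin), whose transcript rises with neuronal activity, had 4.89, 12.2 and 22.4 CPM in anterior against 38.4, 63.2 and 99 in posterior libraries. It was higher in 6 of 6 mice without overlap (2.38, SE 0.21, adjusted p = 1.44e-06). In B6D2F1N, Pcdh8 had 7.24, 19.1 and 41 against 15.7, 40.5 and 95.6, with 9 of 10 mice higher, but did not pass (1.11, SE 0.32, adjusted p = 0.0545). DESeq2 called it there (adjusted p = 0.0123), as did the edgeR fit without a minimum count (0.0124), the fit without the mouse block (0.0399) and the fits without standard mouse 3, standard mouse 5 or enriched mouse 3 (0.015 to 0.0491). Gm9748 on the opposite strand covers 9.6% of the exon bases of Pcdh8. Pcdh19, an X-linked gene of which mutations cause epilepsy in human females, had 76.1, 85.6 and 172 against 161, 182 and 307 CPM in C57BL/6J, higher in 5 of 6 mice and with overlap (0.98, SE 0.19, adjusted p = 0.00524). In B6D2F1N, it differed by 0.65 (SE 0.26, adjusted p = 0.217). Pcdh17 had 82.9, 120 and 191 against 150, 199 and 273 CPM in C57BL/6J, higher in 5 of 6 mice and with overlap (0.68, SE 0.17, adjusted p = 0.0294). The call of Pcdh17 ended without standard mouse 1, 3 or 4 (adjusted p up to 0.152), and in B6D2F1N it differed by 0.08 (SE 0.20, adjusted p = 0.894).

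Pcdh20, which falls outside the delta groups used here, had 50.3, 65.9 and 89.1 CPM in anterior against 68.5, 158 and 217 in posterior libraries of C57BL/6J. It was higher in 6 of 6 mice, with overlap (1.17, SE 0.17, adjusted p = 0.000477). In B6D2F1N, it had 20.5, 47.1 and 73.6 against 25.5, 48.8 and 121 and was higher in 5 of 10 mice (0.52, SE 0.28, adjusted p = 0.404). Thus 3 of the 4 neighbouring protocadherin genes of chromosome 14 were higher in the posterior portion of C57BL/6J, and Pcdh9 did not pass.

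**Figure D3:**
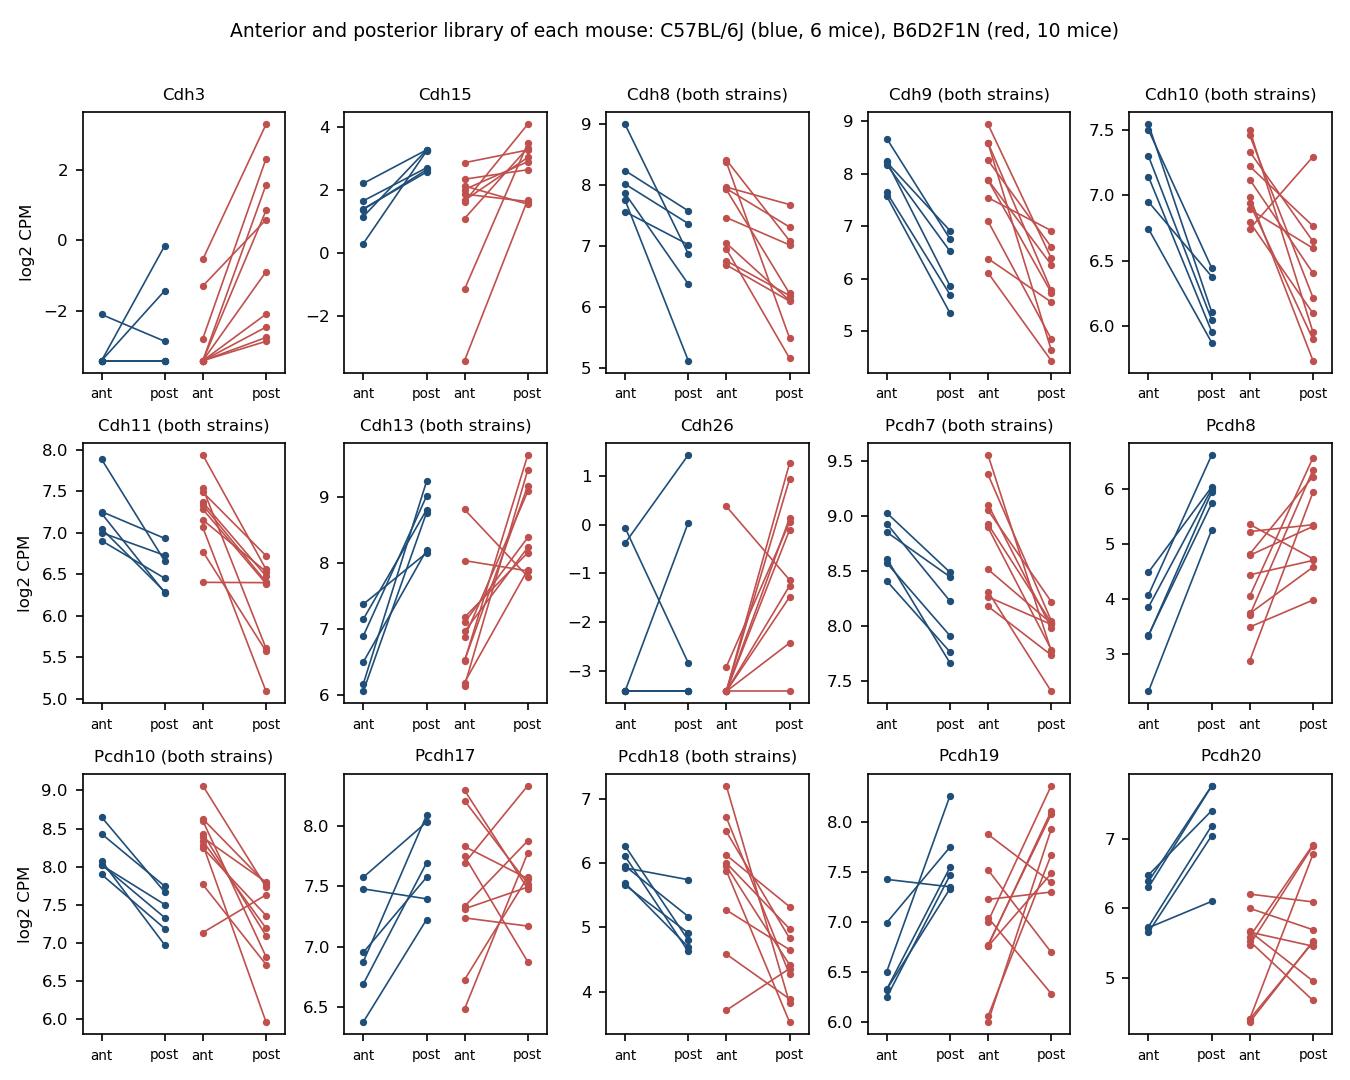
Log2 CPM in the anterior (ant) and posterior (post) library of each mouse for the 15 members past the threshold in at least 1 strain; each line is 1 mouse, C57BL/6J in blue (6) and B6D2F1N in red (10), and each panel has its own log2 axis. The 6 blue lines of Cdh9, Cdh10, Cdh13, Cdh15, Pcdh8 and Pcdh10 run in 1 direction, from ranges that do not overlap.

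The difference between the strains in these portion changes was tested in 1 fit over the 16 mice with both portions. None of 34 members and 0% of 29437 genes passed by edgeR, and 5 members (14.7%) and 2.96% of all genes had an unadjusted p under 0.05. DESeq2 was not run for this test, and it was not refitted without B6D2F1N standard mouse 1. Pcdh8 had the smallest p among the members, whose portion change was smaller in B6D2F1N (difference of log2 fold changes -1.28, SE 0.44, unadjusted p = 0.0076, adjusted p = 1). For Pcdh17, called in C57BL/6J, the difference was -0.61 (SE 0.29, unadjusted p = 0.0489). The calls made in 1 strain are therefore not shown to differ from the other strain.

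Markers of other cells moved with the portions. The 6 choroid plexus markers summed to 8.23 to 27.5 CPM in the anterior and 117 to 1470 in the posterior libraries of C57BL/6J, with 3 of 6 markers called higher, and to 6.51 to 928 and 348 to 14200 CPM in B6D2F1N, with 6 of 6 higher. Of the 6 ependymal markers, 3 and 5 were higher, with sums of 6.51 to 14.2 against 13.7 to 201 CPM in C57BL/6J and 6.32 to 34.9 against 29.6 to 200 in B6D2F1N. Among the excitatory neuron markers, Slc17a7, Neurod6 and Tbr1 were lower and Slc17a6 was higher in both strains. Of the 6 meningeal fibroblast markers, Dcn alone was called, higher in both strains, and their sum was 51.9 to 86.2 against 877 to 1760 CPM in C57BL/6J and 35.2 to 94.2 against 48.8 to 1680 in B6D2F1N. Of the 6 astrocyte markers, Gfap, Gjb6 and Slc1a3 were higher in C57BL/6J, whereas in B6D2F1N Gfap was higher and Slc1a2 lower. Their sum was 3450 to 5700 against 3260 to 6220 CPM in C57BL/6J and 3320 to 5660 against 2810 to 5260 in B6D2F1N. Of the 6 inhibitory neuron markers, Vip was lower in both strains and Pvalb in C57BL/6J. Of the 6 striatal projection neuron markers, Drd1 was called lower in C57BL/6J, and 0 were called in B6D2F1N. The median of the striatal sum was higher in the posterior portion, 350 (303 to 1050) against 788 (273 to 2460) CPM in C57BL/6J. In B6D2F1N, it was 443 (237 to 1140) against 1070 (145 to 3100) CPM. Of the hippocampal neuron markers, C1ql2 and Spink8 were higher in C57BL/6J and Dsp in B6D2F1N, and the mural cell marker Rgs5 was lower in B6D2F1N. None of the endothelial, microglial or oligodendrocyte markers passed in either strain. The part of these cell types in the member differences was not tested. In tissue samples, fewer cells of a type and less RNA per cell cannot be told apart.

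The catenins and cytoplasmic partners hold classical cadherins to the actin skeleton. In C57BL/6J, where 3.64% of all genes passed, 1 of 14 tested was higher (Pkp2, 1.29, SE 0.35, adjusted p = 0.0472) and 1 lower (Ctnna2, the neuronal alpha-catenin, -0.62, SE 0.17, adjusted p = 0.0481), and in B6D2F1N 0 of 15 passed by edgeR, with 6 at an unadjusted p under 0.05, where 15.5% of all genes were, and 4 called by DESeq2. Of 4 nectins, which are immunoglobulin-like adhesion proteins of the same junctions, Nectin1 was higher in both strains (1.52, SE 0.25, adjusted p = 0.00141, and 1.16, SE 0.25, adjusted p = 0.00961). Of the other cadherin superfamily, 21 genes were tested in each strain. The giant cadherin Fat3 and the calsyntenins Clstn1 and Clstn2 were lower in the posterior portion of both strains. Fat3 fell from a mean of 74.6 ± 20.9 to 26.8 ± 10.8 CPM in C57BL/6J (SD, n = 6) and from 77.4 ± 27.2 to 32.8 ± 5.51 in B6D2F1N (SD, n = 10). Fat4 was higher in C57BL/6J (2.40), Celsr2 was lower in B6D2F1N (-0.63), and Cdhr3, Cdhr4 and Dsg2 were higher there, at anterior means of 1.28 CPM or less. Of the clustered protocadherins, 0 of 55 tested passed in C57BL/6J by edgeR. At an unadjusted p under 0.05 were 6 of them, where 13.5% of all genes were, and DESeq2 called 0. In B6D2F1N, 1 of 55 passed, Pcdhb1, which rose from a mean of 0.0288 CPM. There, 13 were at an unadjusted p under 0.05, where 15.5% of all genes were, and DESeq2 called 4. Genes of the Pcdha and of the Pcdhg cluster share their last exons, so reads there cannot be given to a single gene.

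Strains were compared within each housing and portion, as B6D2F1N minus C57BL/6J. Age at sampling and training length, which the paper describes as greater in C57BL/6J, were not adjusted for, and their part was not tested. Reads of both strains were aligned to GRCm38, and the effect of DBA/2 sequence on the counts of B6D2F1N was not tested. In the anterior portion of standard housing, 1 of 33 members passed, where 0.37% of 24305 genes did. This member was Cdh18 (chr15:22549022-23474418), a type II cadherin of the central nervous system. Its CPM was 6.98, 8.19, 10.1 and 10.2 in C57BL/6J standard mice 1 to 4 and 41.4, 26.2, 22.6, 36.4 and 17.7 in B6D2F1N standard mice 1 to 5. The lowest B6D2F1N library was above the highest C57BL/6J library (1.70, SE 0.28, adjusted p = 0.00915). Without C57BL/6J standard mouse 1, the adjusted p was 0.0508, and without B6D2F1N standard mouse 1 it was 0.0252.

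In the other 3 strain comparisons, 0 members passed by edgeR, and the difference of Cdh18 was positive in each, at 1.03 to 1.51. In the anterior portion of enriched housing, its CPM was 8.94 and 12.7 in C57BL/6J and 26.1, 24.5, 39.3, 46.7 and 12.9 in B6D2F1N, with a gap of 12.7 to 12.9 between the strains (1.49, SE 0.49, adjusted p = 1). In the posterior portion of standard housing, C57BL/6J libraries had 13.6, 6.89, 10.3 and 19.7 CPM and B6D2F1N libraries 23.1, 22.5, 13.6, 34.7 and 33.7, which overlapped (1.03, SE 0.34, adjusted p = 0.378). In the posterior portion of enriched housing, the 4 C57BL/6J libraries had 7, 6.36, 4.51 and 7.26 CPM, and the 6 B6D2F1N libraries had a lowest, median and highest value of 7.09, 19.3 and 23.7, again with overlap through 1 library, that of enriched mouse 3 (1.51, SE 0.34, adjusted p = 0.0826). DESeq2 called Cdh18 in this comparison (adjusted p = 0.000847), as did edgeR without enriched mouse 3 (adjusted p = 0.0133) and 1 fit for the 4 groups of the portion (adjusted p = 0.0457). In these libraries, the 6 oligodendrocyte markers summed to 17800 to 27900 CPM in C57BL/6J and 6710 to 16000 in B6D2F1N, without overlap and with none of the 6 called, and their part in the Cdh18 difference was not tested. The 4 comparisons use different libraries, but the anterior and posterior libraries are largely of the same mice.

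In the posterior portion of standard housing, 0.373% of 25171 genes passed. No member of 34 did by edgeR, with 7 at an unadjusted p under 0.05, or 20.6% where 10.3% of all genes were. DESeq2 called 392 genes and 1 member, Pcdh20. It had 132, 169, 217 and 217 CPM in C57BL/6J and 121, 43.8, 45.5, 25.5 and 30.9 in B6D2F1N standard mice 1 to 5, with every B6D2F1N library below the lowest of C57BL/6J (-1.78, SE 0.38, adjusted p = 0.0775 by edgeR and 0.00136 by DESeq2). The highest B6D2F1N value was that of standard mouse 1, the mouse without Xist counts, and without this mouse edgeR called Pcdh20 (-2.32, adjusted p = 0.000737) and Pcdh8 (-1.44, adjusted p = 0.0417). In the same comparison, the 6 meningeal fibroblast markers summed to 933 to 1760 CPM in C57BL/6J and 48.8 to 1680 in B6D2F1N, with none of the 6 called. The part of these cells in the Pcdh20 difference was not tested. In the enriched anterior comparison, with 2 C57BL/6J libraries, 0.0639% of 23459 genes passed and 0 of 32 members, with 1 member and 4.33% of all genes at an unadjusted p under 0.05, and DESeq2 called 0 members and 137 genes. In the enriched posterior comparison, 0.394% of 25640 genes passed and 0 of 34 members, with 5 members (14.7%) and 9.11% of all genes at an unadjusted p under 0.05. DESeq2 called 342 genes there and 2 members, Cdh18 and Cdh3.

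**Figure D4:**
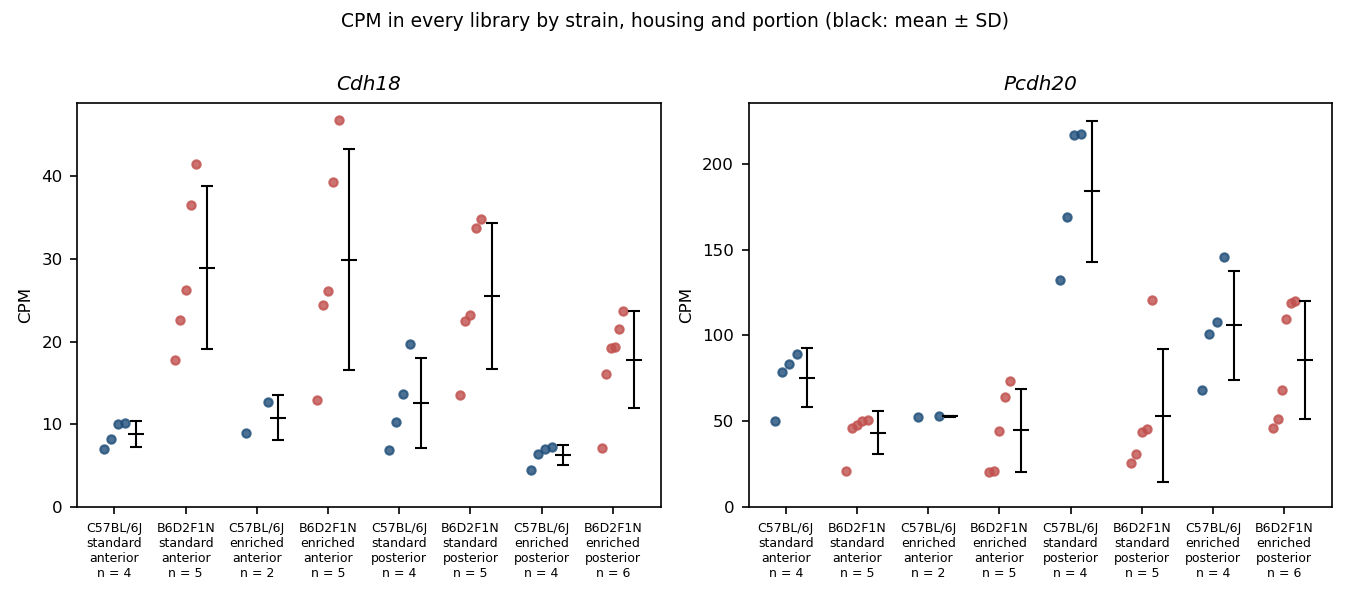
CPM of Cdh18 and Pcdh20 in every library of the 8 groups; blue points are C57BL/6J and red points B6D2F1N libraries, black marks give the mean ± SD, and n is the number of mice. Cdh18 lies at 6.98 to 10.2 against 17.7 to 41.4 in the anterior portion of standard housing, and Pcdh20 at 132 to 217 against 25.5 to 121 in its posterior portion.

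Housing was compared within each strain and portion, as enriched minus standard. No member passed in any of the 4 comparisons by edgeR, where 0% of 22865 genes passed in C57BL/6J anterior, 0.0163% of 24526 in C57BL/6J posterior, 0% of 24639 in B6D2F1N anterior and 0% of 26028 in B6D2F1N posterior libraries. At an unadjusted p under 0.05 were 3 of 31, 8 of 34, 1 of 34 and 1 of 34 members, or 9.68%, 23.5%, 2.94% and 2.94%, where 6.2%, 10.3%, 6.3% and 6.59% of all genes were. DESeq2 called 0, 1, 0 and 0 members and 100, 319, 8 and 13 genes in all. The member that DESeq2 called was Cdh9 in the posterior portion of C57BL/6J. Its CPM was 58.2, 121, 92 and 108 in the standard and 51.9, 42.9, 40.6 and 57.7 in the enriched mice. Every enriched library was below the lowest standard one, the nearest at 57.7 against 58.2 (-0.98, SE 0.25, adjusted p = 0.206 by edgeR and 0.0202 by DESeq2). In these libraries, the 6 oligodendrocyte markers summed to 8010 to 12500 CPM in standard and 17800 to 27900 in enriched housing, with Mbp called higher. The part of these cells in the Cdh9 difference was not tested.

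Whether a strain difference depended on housing was tested in each portion over the 4 groups. None of 34 members and 0% of 26353 genes passed by edgeR in the anterior portion, where 2 members (5.88%) and 5.98% of all genes had an unadjusted p under 0.05. For posterior libraries, none of 34 members and 0% of 27871 genes passed, with 8 members (23.5%) and 8.38% of all genes at an unadjusted p under 0.05. DESeq2 was not run for these tests, and they were not refitted without B6D2F1N standard mouse 1. In the posterior portion, Cdh9 had a difference between the strain effects of 1.52 (SE 0.52, unadjusted p = 0.00791, adjusted p = 0.491), enriched minus standard, and Pcdh20 of 1.49 (SE 0.52, unadjusted p = 0.00835, adjusted p = 0.491). The related lists above had 0 genes past the threshold by edgeR in the 8 strain and housing comparisons, and DESeq2 made 7 calls in all. At most 7 of a list had an unadjusted p under 0.05, each time of the other cadherin superfamily. They were 7 of 20 tested for strain in standard posterior libraries and 7 of 21 for housing in C57BL/6J posterior libraries. Of all genes, 10.3% had such a p in each of these comparisons.

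On the X chromosome, the mouse without Xist counts had 87.7 CPM of Pcdh11x in the anterior library, within the 59.8 to 133 of the other 4 B6D2F1N standard mice, and 73.1 in the posterior library, just below their 77.1 to 151. Its Pcdh19 was 108 CPM in the anterior library, within 64.1 to 184, and 276 in the posterior library, just above 78 to 270.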

How the data were processed

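Libraries were prepared by the authors from poly(A) RNA and sequenced as single reads of 72 bases. Per the labels, the reads were processed with bcl2fastq, Trimmomatic 0.38, HISAT2 2.1.0, SAMtools 1.8 and HTSeq 0.11.2 on GRCm38, and the deposited unit is the raw read count per Ensembl gene. The annotation release and strand setting of the counting are not given in the sources used here. HTSeq's own totals were left out. The 35 libraries held 16938534 to 27352623 counts, and no 2 of 595 pairs were identical.

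Symbols, positions and exon lengths came from GENCODE M21 (52489 of 52636 genes matched). Genes with at least 10 counts in total per comparison were tested in R 4.3.3 with edgeR 4.0.16 (TMM, quasi-likelihood F test, Benjamini-Hochberg over all genes tested, threshold 0.05). Log2 CPM carries a prior count of 2, and CPM per kb uses all exon bases of a gene. The alternatives were DESeq2 1.42.0, its size factors, other count minimums, no mouse block, 1 fit for the 4 groups of a portion, and each mouse left out. Mice were left out in the comparisons of portion, strain or housing, not in the tests of portion by strain or strain by housing. Some of the tests were also run on simulated counts, in which only genes with many counts were changed, each by a large amount. Such a run does not cover members with few counts or smaller changes. Samples are mice, and the spread between them may include cage effects.

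The mouse pairs the portions, since the labels give both libraries the same animal. Deviations of the 2 libraries of a mouse correlated over 18187 genes with a median r of 0.028 (-0.077 to 0.2 over 16 mice), against -0.012 for different mice.

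Members, lists and the rule for named genes (those past the threshold in at least 1 comparison and the 5 with the highest median level per kb) were chosen with earlier results of these data known. The fit without the mouse that lacks Xist counts was chosen after seeing the data. Of the excitatory neuron markers, 1 gene and the sum over the list are not reported here.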

Additional observations from a re-analysis of the deposited data

Results flagged for a closer look

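Values far from the other libraries of their group, by Dixon's test, occurred in 3 of the 53 groups of libraries tested, and chance alone gives about 1 in 20. Cdh11 was 7.89 log2 CPM in the anterior library of C57BL/6J standard mouse 2, and 6.91 to 7.26 in the other 5. Cdh26 was 0.37 log2 CPM in the anterior library of B6D2F1N standard mouse 3, from 23 counts, and -3.42 to -2.92 in the other 9. Cdh18 was 2.85 log2 CPM in the posterior library of B6D2F1N enriched mouse 3, from 149 counts, and 4.01 to 4.57 in the other 5.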

How the results depend on the processing

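Counts of members past the threshold ranged from 9 to 13 in C57BL/6J and from 8 to 11 in B6D2F1N for the portions when each mouse was left out. Without the mouse block, the paired portion comparisons gave 10 members in each strain, with Cdh11 (adjusted p = 0.0535), Pcdh17 (0.125) and Pcdh7 (0.0748) lost in C57BL/6J and Cdh26 (0.195) lost and Pcdh8 (0.0399) gained in B6D2F1N, and the test of portion by strain stayed at 0. Without a count minimum, Cdh19 (0.014) and Cdh7 (0.0483) were also called in C57BL/6J, and in B6D2F1N Cdh12 was called without a minimum (0.0441), by DESeq2 (0.0388) and without standard mouse 2 (0.0224). For strain in standard anterior libraries, leaving out each mouse gave 0 to 1 members. For strain in standard posterior libraries, the count was 1 without a count minimum, 1 in the fit for 4 groups and 1 by DESeq2 (Pcdh20 each time), and 0 to 2 with each mouse left out. For strain in enriched posterior libraries, it was 1 in the fit for 4 groups (Cdh18), 2 by DESeq2 (Cdh18 and Cdh3) and 0 to 1 with each mouse left out. For housing in C57BL/6J posterior libraries, it was 1 by DESeq2 (Cdh9) and 0 to 1 with each mouse left out, with Cdh12 called (1.61, adjusted p = 0.0392) without enriched mouse 3. The causes were not tested. Of 348 alternative values for 27 results of single members, 320 kept direction and side of the threshold, 25 lost the call, 3 gained it and 0 reversed. Where enriched C57BL/6J anterior libraries number 2, leaving out 1 assumes that the other varies like the remaining groups. DESeq2's size factors moved the median of all genes by at most 0.024 on the log2 scale. Depth limits the members with few reads, Cdh1, Cdh3, Cdh16, Cdh17, Cdh24, Cdh26 and Pcdh12.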
